A study of Mus musculus with 12 samples.

Results

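The genes described here are 10 genes of MHC class II antigen presentation and of dendritic cells, out of 25229 genes with a symbol in the deposited table, chosen by symbol. They were H2-Aa, H2-Ab1, H2-Eb1, Cd74, H2-DMa, H2-DMb1, Ciita, Flt3, Zbtb46 and Clec9a. All 10 were listed and all 10 passed the filter on low values that admitted 15597 genes to the tests. RNA was sequenced from the epididymal fat pad, a visceral white fat depot taken whole, of C57BL/6 mice. Altogether 4 groups of 3 biological replicates were formed by genotype and diet. HFD_TKO mice carried the genotype labelled TET KO and ate a high-fat diet, and HFD_WT mice were wild type on that diet. ND_TKO mice were TET KO on a normal diet and ND_WT mice were wild type on a normal diet. The series title places the loss of TET proteins, enzymes that oxidise 5-methylcytosine in DNA, in adipocytes. The deleted exons, the Cre driver, the ages and the time on diet are not given in the sources used here.

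MHC class II molecules are cell-surface dimers of an alpha and a beta chain that show peptides from endocytosed protein to CD4+ T cells. H2-Aa and H2-Ab1 encode the chains of I-A, and H2-Eb1 encodes the beta chain of I-E. Cd74, the invariant chain, guards the groove of new dimers, and H2-DM, made of H2-DMa and H2-DMb1, exchanges the remnant of Cd74 for peptide. Ciita is the coactivator on which transcription of these genes depends. Dendritic cells, B cells and activated macrophages are the usual class II expressing cells of a fat pad. Flt3 is the growth factor receptor of dendritic cell progenitors and conventional dendritic cells, Zbtb46 is a transcription factor of conventional dendritic cells that endothelial cells also express, and Clec9a is a receptor for dead cell material on type 1 conventional dendritic cells.

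Values are CPM, the reads of a gene scaled to a common library size. Totals recovered from the CPM steps lay between 20973140 and 25606629 reads. Flt3, Zbtb46 and Clec9a had 32 to 271 reads per library, so counting error was a larger share of their level than for the class II chains. The fat label was borne out by Adipoq, the adipocyte hormone adiponectin, at 1349 CPM or more in every library. Counts over whole genes cannot check a deletion whose exons are not given, so the TKO labels were taken as they stand. No Tet gene was called lower in TKO than in WT on either diet by limma, and Tet1 was called higher on both. Tet1 had 3.07, 2.07 and 1.65 CPM in HFD_TKO, against 0.860, 0.841 and 0.996 CPM in HFD_WT (log2 change 0.76 ± 0.21, adjusted p = 0.010). On ND the log2 change of Tet1 was 0.97 ± 0.21 (adjusted p = 0.019), a call lost without ND_TKO replicate 1 (0.062), ND_TKO replicate 3 (0.076) or ND_WT replicate 2 (0.064) and with the compared groups alone (0.072). Tet2 in TKO against WT had a log2 change of -0.47 ± 0.20 (SE, limma adjusted p = 0.066) on HFD and of -0.06 ± 0.20 (adjusted p = 0.91) on ND, and Tet3 one of -0.18 ± 0.09 (adjusted p = 0.13) on HFD and of 0.22 ± 0.09 (adjusted p = 0.17) on ND. One library stood apart, ND_WT replicate 3, with 2588 CPM of Lep, the adipocyte hormone leptin, against 689 and 495 CPM in the other ND_WT libraries. It also held the highest level in its group for H2-Aa, H2-Ab1, H2-Eb1, Cd74, H2-DMa, H2-DMb1 and Ciita, so results that change without it are given both ways.

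Transcription of class II genes is known to start from a promoter module in which the X box binds RFX and CREB factors and the Y box, an inverted CCAAT box, binds NF-Y, together forming the platform that recruits Ciita. RefSeq promoters (GRCm38.p6) were found for 7 of the 10 genes. Windows of the 250 bases before the start were searched for GNAAC, part of an X box, followed after 20 to 30 bases by GATTGG, the Y box. The letters and the spacing were chosen after these promoters had been seen. On the gene's strand, 0.286% of 32851 promoters held the pair, and 0.551% held it on either strand. H2-Aa, H2-Eb1 and H2-DMb1 held it, as did H2-Oa and H2-Ob, which encode the modulator H2-O. Those of 4 genes are shown because they carry the shared arrangement, with both motifs in capitals and the gene's strand read 5′ to 3′.
H2-Aa: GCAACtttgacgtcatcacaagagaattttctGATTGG
H2-Eb1: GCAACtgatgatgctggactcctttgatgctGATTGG
H2-Oa: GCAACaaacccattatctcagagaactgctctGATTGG
H2-Ob: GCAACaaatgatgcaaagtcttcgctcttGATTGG
They lie at chr17:34287867-34287904 on the minus strand for H2-Aa, and on the plus strand at chr17:34305776-34305812 for H2-Eb1, chr17:34092303-34092340 for H2-Oa and chr17:34238818-34238852 for H2-Ob. The motifs stood 27 bases apart in H2-Aa and H2-Oa, 26 apart in H2-Eb1 and 24 apart in H2-Ob. In H2-DMb1 the stretch lay at chr17:34153097-34153134, plus strand, which GENCODE vM21 places inside a first exon of the gene. The closest stretch of H2-DMb2, the near copy of H2-DMb1, differed at 5 of 38 positions counted from the 5′ end of the H2-DMb1 stretch. Those were G1T, T6C, G21A, T23G and C29T, and the first of them removes the GNAAC letters. Neither H2-DMa nor the dendritic cell genes Flt3, Zbtb46 and Clec9a held the pair in these windows. The H2-DMa entries (chr17:34122582-34122881 and chr17:34125268-34125567) and the Zbtb46 entry (chr2:181424339-181424638) lie inside the GENCODE vM21 spans of these genes. Promoters at other starts of these genes were not searched. The H2-DMa entry at chr17:34125268-34125567 held GATTGG but not the pair. A match or its absence describes the letters of the window and not the binding of a factor.

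In GENCODE vM21 (GRCm38), 5 of the 10 genes lie close together on chromosome 17: H2-DMa at chr17:34119541-34139101, H2-DMb1 at chr17:34153072-34160230, H2-Aa at chr17:34282744-34287823, H2-Ab1 at chr17:34257689-34269419 and H2-Eb1 at chr17:34305867-34316674. Elsewhere, Cd74 lies at chr18:60803848-60812652, Ciita lies at chr16:10480059-10528418, Flt3 lies at chr5:147330741-147400489, Zbtb46 lies at chr2:181387762-181459426 and Clec9a lies at chr6:129408862-129424763.

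Levels differed by orders of magnitude between the genes once divided by the length of their exons. In HFD_WT fat the mean level per kilobase was 1199 CPM for Cd74, followed by 393.6 CPM for H2-Eb1, 286.1 CPM for H2-Aa, 258.2 CPM for H2-Ab1 and 103.2 CPM for H2-DMb1. The ranges over libraries of H2-Aa (253.2 to 340.1 CPM per kilobase) and H2-Ab1 (231.5 to 306.2) overlapped, and their order within libraries was not tested. Far below stood H2-DMa at 17.66, Ciita at 3.30, Clec9a at 2.56, Flt3 at 0.988 and Zbtb46 at 0.642 CPM per kilobase. The ranges of Ciita (2.576 to 4.035) and Clec9a (2.016 to 3.562) overlapped too. ND_WT fat had Cd74 at 365.6 CPM per kilobase, again the highest, and Flt3 at 0.310, there the lowest. Zbtb46 at 0.899 CPM per kilobase stood above Ciita at 0.803 in ND_WT, with overlapping libraries.

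On high-fat diet, 9 of the 10 genes were lower in TKO than in WT fat, and Zbtb46 did not pass the test. Across all tested genes 31.6% were lower and 15.2% were higher in this comparison, so 46.7% were called in all. The median log2 change of the 10 genes was -1.30, against -0.10 over all tested genes. The I-A and I-E chains, Cd74 and Ciita fell to between 0.331 and 0.413 times the HFD_WT mean. Flt3 fell to 0.518 times and Clec9a to 0.570 times that mean. These samples are bulk tissue, in which fewer cells of a type and less RNA per cell cannot be told apart.

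H2-Aa had 416, 337 and 364 CPM in the HFD_TKO libraries, against 1006, 962 and 1292 CPM in HFD_WT. On normal diet it had 300, 260 and 223 CPM in ND_TKO, against 224, 255 and 356 CPM in ND_WT. The HFD_WT libraries stood apart above all 9 others, and the groups on normal diet overlapped. The log2 change in TKO on HFD was -1.53 ± 0.17 (SE, adjusted p = 2.2e-05). H2-Ab1 had 301, 243 and 278 CPM in HFD_TKO, against 609, 595 and 786 CPM in HFD_WT, and changed by -1.27 ± 0.19 (adjusted p = 0.00018). H2-Eb1 had 305, 240 and 274 CPM in HFD_TKO, against 702, 671 and 923 CPM in HFD_WT, and changed by -1.48 ± 0.18 (adjusted p = 3.8e-05). The 95% intervals of these 3 chain genes overlapped. In C57BL/6 mice I-E is not assembled, because their H2-b haplotype lacks a working alpha chain gene. H2-Ea-ps, the symbol under which the table lists that gene, had 0 reads in all 12 libraries, which allows up to 0.117 to 0.143 CPM (3 reads, counting error only).

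**Figure D1:**
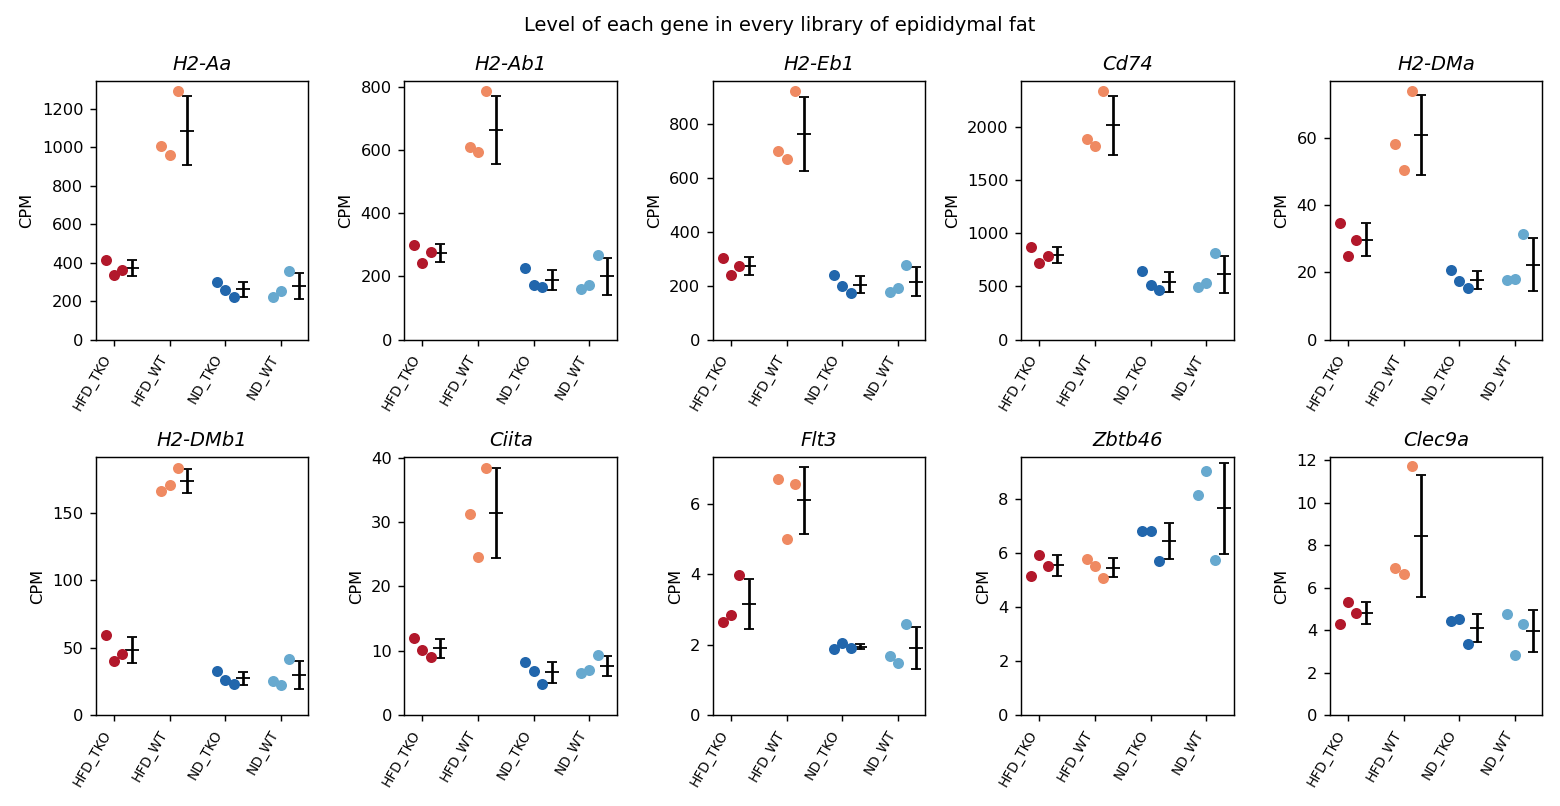
Level of each of the 10 genes in CPM (linear axes from 0, a scale per gene) in the 12 libraries, with dots for libraries and black bars for the group mean ± SD (n = 3). For every gene but Zbtb46 the HFD_WT dots lie above all HFD_TKO dots, and ND_WT replicate 3, the right-hand dot of its group, is its group's highest for 8 genes and its lowest for Zbtb46.

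Of the invariant chain and H2-DM genes, Cd74 had 871, 723 and 787 CPM in HFD_TKO, against 1882, 1823 and 2337 CPM in HFD_WT. Its log2 change was -1.34 ± 0.18 (adjusted p = 9.2e-05). H2-DMa had 34.6, 24.8 and 29.7 CPM in HFD_TKO, against 58.2, 50.5 and 74.0 CPM in HFD_WT (log2 change -1.01 ± 0.22, adjusted p = 0.0023). H2-DMb1 had 59.3, 40.5 and 45.4 CPM in HFD_TKO, against 167, 170 and 183 CPM in HFD_WT (log2 change -1.84 ± 0.21, adjusted p = 2.2e-05). None of these groups overlapped, and H2-DMb1 gave the largest change of the 10 genes. The 95% intervals of the H2-DM partners, -1.48 to -0.54 for H2-DMa and -2.29 to -1.38 for H2-DMb1, overlapped, and their difference was not tested. Both values carry a counting limit. Of the 50-base stretches of H2-DMb1 transcripts, 22.7% also occur in H2-DMb2, and 8.43% of those of H2-DMa occur on the other strand of Brd2, whose exons overlap it over 360 bases.

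Ciita had 12.05, 10.1 and 9.09 CPM in HFD_TKO, against 31.3, 24.6 and 38.5 CPM in HFD_WT. Its log2 change of -1.49 ± 0.20 (adjusted p = 7.5e-05) lay within the range of the class II chains, and its groups did not overlap. Dexi shares 329 exon bases with Ciita on the other strand, 3.45% of the exons of Ciita, and Clec1b shares 184 exon bases with Clec9a.

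Of the dendritic cell genes, Flt3 had 2.65, 2.85 and 3.98 CPM in HFD_TKO, against 6.72, 5.001 and 6.58 CPM in HFD_WT (log2 change -0.78 ± 0.17, adjusted p = 0.0028). Clec9a had 4.28, 5.33 and 4.80 CPM in HFD_TKO, against 6.91, 6.64 and 11.7 CPM in HFD_WT (log2 change -0.66 ± 0.21, adjusted p = 0.021). Neither pair of groups overlapped, but the Clec9a difference moved with HFD_WT replicate 3, its highest library. Without that library the change was -0.43 (adjusted p = 0.091), and the call was also lost without HFD_TKO replicate 1 (adjusted p = 0.064) or HFD_TKO replicate 3 (adjusted p = 0.051). Zbtb46 had 5.16, 5.93 and 5.53 CPM in HFD_TKO, against 5.78, 5.53 and 5.06 CPM in HFD_WT, and these groups lay on top of each other. Its log2 change was 0.02 ± 0.14 (adjusted p = 0.94), with a 95% interval of -0.30 to 0.33. The changes measured for the other 9 genes lay outside that interval. The interval of Clec9a, -1.12 to -0.21, overlapped it, and differences between genes were not tested.

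The high-fat diet raised 9 of the 10 genes in WT fat, and Zbtb46 was lower. Across all tested genes 58.1% were called on HFD in WT, 37.8% higher and 20.3% lower. The median log2 change of the 10 genes was 1.74, against 0.13 over all tested genes. With TMM scaling, which aligns libraries on their bulk of genes, the median over all genes was 0.01. For the 9 genes that rose, every HFD_WT library exceeded every ND_WT library. The share of all tested genes with such separation was not computed, so it is not read as particular to these genes. H2-DMb1 rose most, by 2.56 ± 0.21 on the log2 scale, or 5.84 times in mean CPM (adjusted p = 9.3e-07). H2-Aa rose by 1.98 ± 0.17 (adjusted p = 1.7e-06), Ciita by 1.90 ± 0.20 (adjusted p = 7.3e-06) and Cd74 by 1.74 ± 0.18 (adjusted p = 7.4e-06). The remaining class II genes rose by 1.84 (H2-Eb1), 1.75 (H2-Ab1) and 1.44 (H2-DMa). Flt3 rose by 1.29 ± 0.17 (adjusted p = 4.8e-05) and Clec9a by 0.90 ± 0.21 (adjusted p = 0.0029).

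Zbtb46 went the other way on this diet in WT fat, with 5.78, 5.53 and 5.06 CPM in HFD_WT, against 8.15, 9.03 and 5.75 CPM in ND_WT. The groups overlapped at ND_WT replicate 3. The log2 change of -0.40 ± 0.14 (adjusted p = 0.031) was not called without any one HFD_WT library (adjusted p of 0.050, 0.064 and 0.094 without replicates 1, 2 and 3), without ND_WT replicate 1 (0.099) or without ND_WT replicate 2 (0.13). It was also not called with no filter on low values (0.052) or with the compared groups alone (0.069).

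On normal diet none of the 10 genes was called between TKO and WT by limma, none had an unadjusted p under 0.05, and none was called by edgeR or DESeq2. Across all tested genes 5.7% were called in this comparison, 2.16% higher and 3.54% lower. That share was 11.9% without ND_WT replicate 3, and 2.24%, 3.24%, 3.33% and 2.79% without ND_WT replicate 1, ND_WT replicate 2, ND_TKO replicate 1 and ND_TKO replicate 3. The TKO and WT libraries overlapped for all 10 genes. Log2 changes lay between -0.27 (H2-DMa, 95% interval -0.74 to 0.20) and 0.05 (Clec9a, -0.41 to 0.51). The interval for H2-Aa was -0.45 to 0.31, and that for Ciita was -0.62 to 0.25. The log2 changes of H2-Aa, H2-Ab1, H2-Eb1, Cd74 and H2-DMb1 were below 0 with all libraries but between 0.06 and 0.19 without ND_WT replicate 3.

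**Figure D2:**
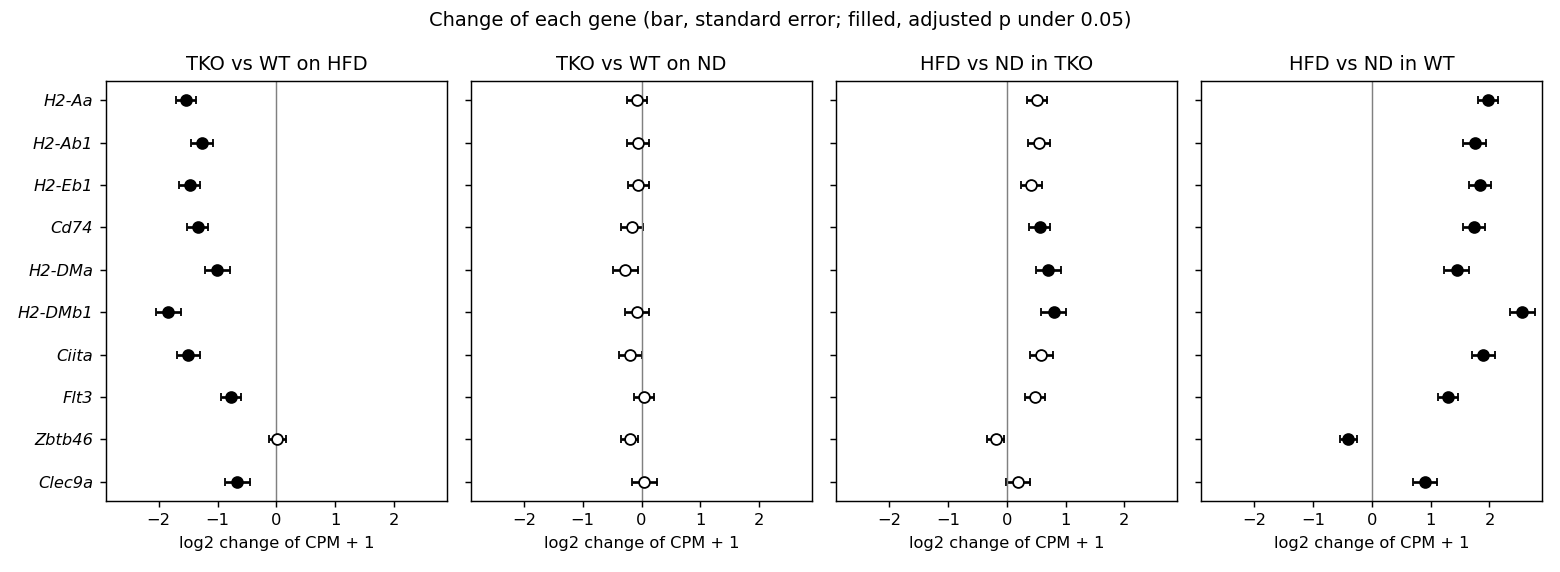
Log2 change of CPM + 1 of each gene (dot, with its SE as a bar; filled where the limma adjusted p is under 0.05) in 4 comparisons. In TKO against WT, 9 dots are filled left of 0 on HFD and none on ND; in HFD against ND, 3 are filled right of 0 in TKO and 9 in WT, where Zbtb46 is filled left of 0.

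In TKO fat 3 of the 10 genes were higher on the high-fat than on the normal diet, where 22.1% of all tested genes were called, 16.2% higher and 5.9% lower: H2-DMb1 by 0.80 ± 0.21 (adjusted p = 0.019), H2-DMa by 0.71 ± 0.22 (adjusted p = 0.035) and Cd74 by 0.56 ± 0.18 (adjusted p = 0.047). H2-Aa gave 0.52 ± 0.17 and Ciita 0.59 ± 0.20, both at an adjusted p of 0.053. Of the 10 genes, 8 had an unadjusted p under 0.05, all of them with a value above 0. The share of all tested genes at that unadjusted threshold was not computed, and the 22.1% above is for adjusted p. The count of 3 calls moved with single libraries. WT libraries enter this comparison only through the spread that all groups share in the model. Leaving out ND_WT replicate 3 gave 8 calls, where 27.5% of all tested genes were called. Leaving out ND_TKO replicate 1 gave 6 (19.5% of all) and HFD_WT replicate 3 gave 5 (19.4%). Without HFD_TKO replicate 3 (14.2%) or HFD_WT replicate 1 (18.2%) there was 1 call. Without HFD_TKO replicate 1 (15.9%), ND_TKO replicate 2 (17%) or ND_TKO replicate 3 (11%) there were 0. With TMM scaling or edgeR the count was 1 (18.4% of all in each).

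HFD_TKO fat was also set against ND_WT fat. H2-DMb1 was higher by 0.72 ± 0.21 (adjusted p = 0.020) and Flt3 by 0.52 ± 0.17 (adjusted p = 0.034), where 35.1% of all tested genes were called, 20% higher and 15% lower. For the other 8 genes log2 changes lay between -0.38 and 0.48 and were not called. The count of 2 rested on the ND_WT group. It became 8 (7 higher, and Zbtb46 lower) without ND_WT replicate 3, where 41.1% of all tested genes were called. It was 0 without ND_WT replicate 1 (23.8% of all) or 2 (25.1%), and 1 without HFD_TKO replicate 1 (27.2%) or 3 (28.1%).

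The difference between the TKO effects on the 2 diets was tested directly as an interaction, the TKO effect on HFD minus that on ND. It was negative and called for 7 of the 10 genes, where 28.7% of all tested genes were called, 18.8% lower and 9.94% higher. The values were -1.76 ± 0.30 for H2-DMb1 (adjusted p = 0.0010) and -1.46 ± 0.25 for H2-Aa (adjusted p = 0.0011). Ciita had -1.30 ± 0.28 (adjusted p = 0.0047) and Flt3 -0.81 ± 0.24 (adjusted p = 0.026). H2-DMa had -0.73 ± 0.30 (adjusted p = 0.095) and was called without ND_WT replicate 3 (-0.99, adjusted p = 0.0074). Clec9a had -0.71 ± 0.30 (adjusted p = 0.094) and Zbtb46 0.22 ± 0.20 (adjusted p = 0.47). The Flt3 call was lost with edgeR (adjusted p = 0.065) and DESeq2 (adjusted p = 0.060). It was also lost without HFD_TKO replicate 1 or 2, HFD_WT replicate 1 or 3, ND_TKO replicate 2, or ND_WT replicate 1 or 2, at adjusted p between 0.052 and 0.067.

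Further genes of the class II pathway were followed as a list of 13 genes, of which 12 were in the table and 11 were tested. All 11 were lower in HFD_TKO than in HFD_WT fat, with a median log2 change of -1.76, where 31.6% of all tested genes were lower (median -0.10). All 11 were higher in HFD_WT than in ND_WT fat, with a median of 1.74, where 37.8% of all tested genes were higher (median 0.13). Ctss, cathepsin S, which degrades the invariant chain, had 170, 166 and 208 CPM in HFD_TKO, against 1139, 1140 and 1282 CPM in HFD_WT. Its log2 change of -2.71 ± 0.19 (adjusted p = 5.8e-07) exceeded in size that of each of the 10 genes. H2-DMb2 changed by -1.76 ± 0.23 (adjusted p = 6.8e-05). H2-Oa and H2-Ob, typical of B cells, changed by -1.48 ± 0.31 (adjusted p = 0.0022) and -1.76 ± 0.40 (adjusted p = 0.0035). H2-Ob had 2.93, 1.65 and 2.88 CPM in HFD_TKO, against 16.9, 4.47 and 15.02 CPM in HFD_WT, where replicate 2 was low.

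Of 15 factors of the class II promoter and the interferon gamma path, 14 were tested, and 11 were lower and 1 higher in HFD_TKO than in HFD_WT (median log2 change -0.44), where 31.6% of all tested genes were lower and 15.2% higher (median -0.10). Spi1, the myeloid factor PU.1, changed by -2.27 ± 0.16 (adjusted p = 5.0e-07). Rfx5, an X box factor, changed by -0.42 ± 0.15 (adjusted p = 0.037). That call was lost with TMM scaling (adjusted p = 0.063), edgeR (0.081), DESeq2 (0.079), no filter (0.054) and the groups compared alone (0.070), and without HFD_TKO replicate 1 (0.14) or HFD_WT replicates 1 or 3 (0.12 each). Rfxap, another subunit of that complex, named after its value was seen, was higher by 0.28 (adjusted p = 0.021). Ifng itself had 1, 1 and 0 reads in HFD_TKO, against 1, 2 and 4 reads in HFD_WT, and was not tested. The 4 tested costimulation genes were all lower, among them Cd86 at -1.08 ± 0.16 (adjusted p = 0.00015).

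The lists of dendritic cell markers are small, and their counts in HFD_TKO against HFD_WT stand beside 31.6% of all tested genes lower and 15.2% higher, so none of them is read as particular to dendritic cells. Of 7 type 1 conventional dendritic cell genes, 4 were lower. Irf8, a lineage factor also used by B cells and macrophages, changed by -1.83 ± 0.19 (adjusted p = 1.3e-05) and Xcr1, a chemokine receptor typical of that subset, by -0.75 ± 0.21 (adjusted p = 0.011, but 0.054 with edgeR). Batf3 had -0.43 ± 0.20 (adjusted p = 0.095) with all libraries and passed the test without ND_WT replicate 3 (adjusted p = 0.016) or with the compared groups alone (0.026). Xcr1 had 1.63, 1.15 and 1.28 CPM in HFD_TKO, against 3.32, 2.21 and 3.42 CPM in HFD_WT.

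Of 6 type 2 genes, 3 were lower and 2 higher. Cd209a, a lectin of monocyte-derived and type 2 dendritic cells, had 13.3, 8.09 and 8.77 CPM in HFD_TKO, against 2.30, 2.61 and 2.16 CPM in HFD_WT. It was thus higher in every HFD_TKO library (log2 change 1.69 ± 0.23, adjusted p = 8.2e-05). It was also lower in HFD_WT than in ND_WT, with a log2 change of -1.07 ± 0.23 (adjusted p = 0.0017). Of 6 mature dendritic cell genes 4 were lower, among them Ccr7, the receptor that guides migration to lymph nodes, at -1.39 ± 0.27 (adjusted p = 0.0012). Of 5 tested plasmacytoid genes 3 were lower and Siglech was higher, by 0.70 ± 0.18 (adjusted p = 0.0064). Flt3l, the ligand of Flt3, gave -0.07 ± 0.16 (adjusted p = 0.78), with the sign reversed under TMM scaling, edgeR and DESeq2.

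**Figure D3:**
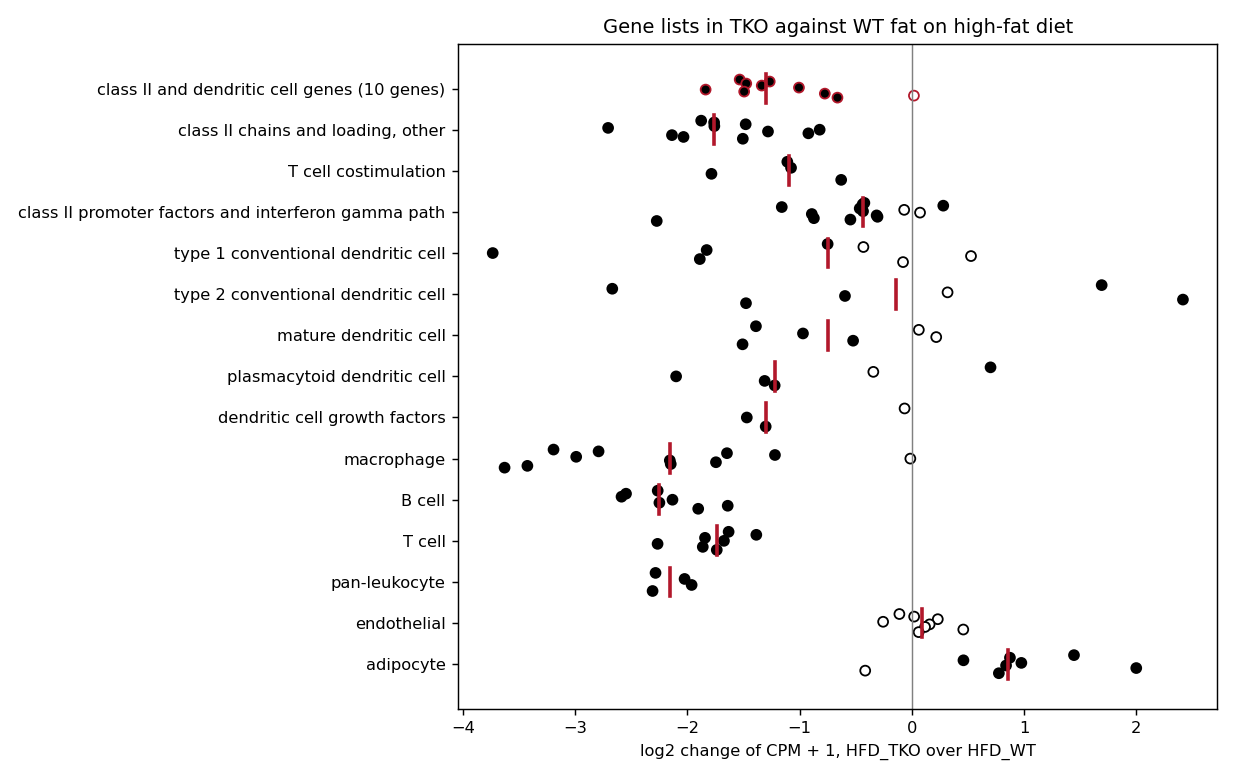
Log2 change of CPM + 1 in HFD_TKO over HFD_WT for each tested gene of 15 gene groups (filled where the adjusted p is under 0.05), with a red bar at each group's median. The 10 genes have a median of -1.30, the macrophage list -2.16, the endothelial list 0.09 and the adipocyte list 0.86.

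Markers of other cell types moved with the 10 genes on high-fat diet, and their part in the result was not tested. Their counts stand beside 31.6% of all tested genes lower and 15.2% higher in HFD_TKO than in HFD_WT. Of 11 macrophage genes, 10 were lower in HFD_TKO than in HFD_WT, with a summed level of 1421 to 1604 CPM in HFD_TKO, against 6271 to 7007 CPM in HFD_WT. Adgre1, which encodes F4/80, had 64.8, 66.4 and 73.7 CPM in HFD_TKO, against 642, 715 and 549 CPM in HFD_WT. All 4 pan-leukocyte genes were lower (summed 233 to 284 CPM in HFD_TKO, against 1102 to 1136 CPM in HFD_WT), as were all 7 B cell genes (7.21 to 10.3 CPM, against 21.6 to 133 CPM) and all 7 T cell genes (5.91 to 8.18 CPM, against 19.6 to 66.998 CPM). None of the 8 endothelial genes was called by limma, 2 had an unadjusted p under 0.05, and the summed levels overlapped at 717 to 830 CPM in HFD_TKO and 735 to 817 CPM in HFD_WT. Of 8 adipocyte genes 7 were higher, with sums of 26758 to 28102 CPM in HFD_TKO, against 15632 to 16951 CPM in HFD_WT.

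The B cell genes summed lowest of the HFD_WT libraries in replicate 2, at 21.6 CPM. The T cell genes also summed lowest there, at 19.6 CPM. In that replicate H2-Aa, H2-Ab1, H2-Eb1, Cd74, H2-DMa, Ciita, Flt3 and Clec9a were also the lowest of their group. Ciita stood there at 24.6 and H2-DMa at 50.5 CPM. H2-DMb1, at 170 CPM, and Zbtb46, at 5.53 CPM, were not the lowest. Without HFD_WT replicate 2, 9 genes were called lower in TKO on HFD, and the part of B cells in the result was not tested.

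**Figure D4:**
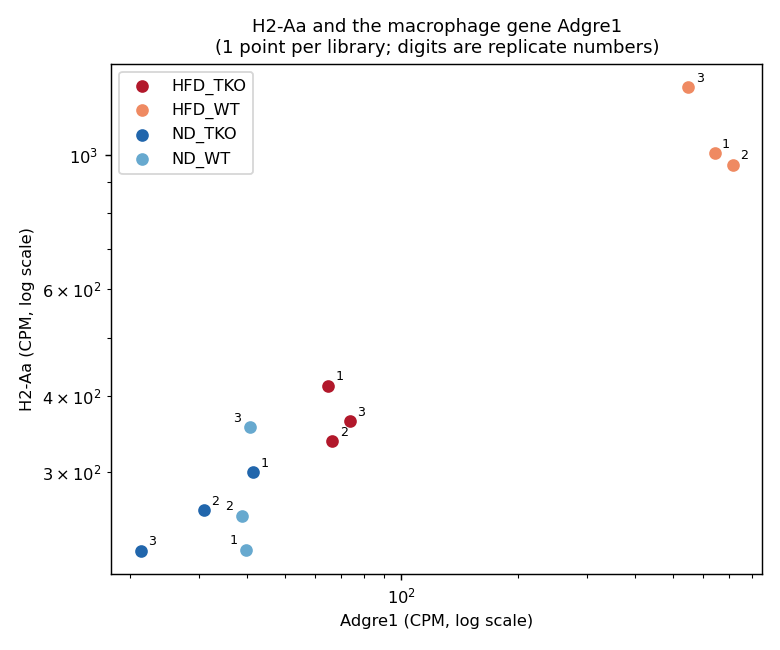
H2-Aa against the macrophage gene Adgre1, in CPM on log axes, with 1 dot per library, coloured by group, and its replicate number beside it. The HFD_TKO libraries lie at 64.8 to 73.7 CPM of Adgre1, and the HFD_WT libraries lie together at 549 to 715 CPM and above all others in H2-Aa.

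Each gene was also expressed relative to macrophage genes of the same library, as its log2(CPM + 1) minus the mean of the 11 macrophage genes, one of which (Itgax) dendritic cells also express. On this scale all 10 genes were higher in HFD_TKO than in HFD_WT, none with overlapping groups, and the median difference was 0.97. The macrophage list itself had a median log2 change of -2.16, against -0.10 over all tested genes. Any gene that fell by less than these macrophage genes is higher on this scale. The count is thus not read as particular to the 10 genes, and the share over all genes was not computed. Zbtb46 differed most, by 2.29, and H2-DMb1 least, by 0.43, while H2-Aa averaged 2.30 ± 0.21 in HFD_TKO and 1.57 ± 0.24 in HFD_WT (SD, n = 3). Each exact two-sided permutation test gave p = 0.10, the smallest that 3 against 3 libraries allow, so none could pass 0.05. Relative to the 4 pan-leukocyte genes, whose own median log2 change was -2.15, the 10 genes were likewise all higher, with a median of 0.84. In these libraries the CPM of the class II genes was thus lower in HFD_TKO while their level relative to macrophage genes was higher.

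The same scale gave the opposite direction for the diet in WT fat. Relative to the macrophage genes all 10 genes were lower in HFD_WT than in ND_WT, 9 of them without overlap, and the median difference was -1.10 (exact p = 0.10 for those 9 and 0.40 for H2-DMb1). The macrophage list itself rose by a median of 2.58 and the pan-leukocyte list by 2.64, against 0.13 over all tested genes. A gene that rose by less than a list is lower against it. These counts are thus not read as particular to the 10 genes. Against the pan-leukocyte genes the median was -0.85, and H2-DMb1, at -0.03, reversed sign without HFD_WT replicate 1, ND_WT replicate 1 or ND_WT replicate 3. In TKO against WT on ND, 9 of 10 genes were above 0 against the macrophage list (median 0.20) and none was without overlap. In HFD_TKO against ND_TKO the median was -0.32, and in HFD_TKO against ND_WT it was -0.16.

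**Figure D5:**
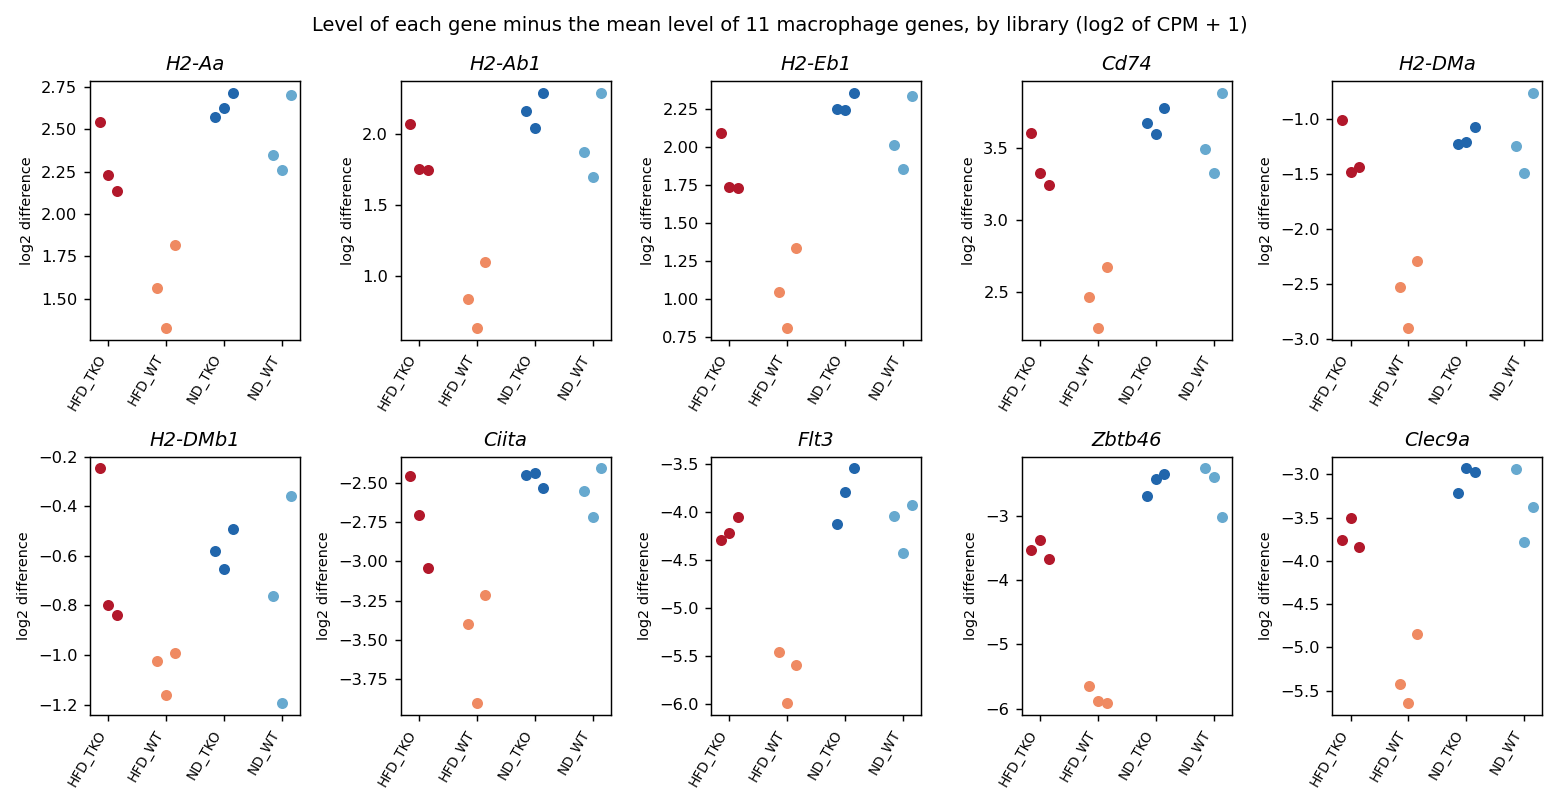
Log2(CPM + 1) of each gene minus the mean log2(CPM + 1) of 11 macrophage genes in the same library (a scale per gene, not starting at 0), with 1 dot per library. The HFD_WT dots lie below all HFD_TKO dots for each of the 10 genes.

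The genes whose levels followed 5 of the 10 most closely over the 12 libraries were named by Pearson's r of log2(CPM + 1), as a description, since the libraries share 4 groups. Nearest to H2-Aa were Mir5107 (r = 0.998), whose locus lies within Cd74 so that its reads may be those of Cd74, and Dbnl, Lyn, Tmsb4x and Ticam2 (0.991 to 0.993). Ciita was followed by Lcp2, Nlrp1a, Gpr85, Tmem173 and Tfe3 (0.987 to 0.990), and Flt3 by Fyn, Eid1, Cdk14, Pbdc1 and Gna15 (0.977 to 0.982). Clec9a was nearest to Cmpk2 (0.978), Ifit2 (0.967), Enpp6, Armc7 and Isg15 (0.948). Zbtb46 had looser neighbours, Acr, Zfp839, Lgals6, Lgals4 and Gulp1 (0.925 to 0.952), of which Lgals4 and Lgals6 are near copies whose reads may be split.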

How the data were processed

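The authors deposited 1 table of CPM values for 25232 genes and 12 libraries, called raw CPM per the file headers. The submitters' processing notes name STAR 2.7.3a, featureCounts 2.0.0, DESeq2 and mm10 but give no roles. Strand use and the handling of multi-mapped reads are not given in the sources used here. In the deposited table every CPM value, less an offset of 0.01 read, gave a whole number of reads within 0.05 read (100% of values), and these reads served edgeR and DESeq2. Replicates differed by more than counting noise (chi-square per degree of freedom 6.04 to 69.6 over 12 pairs). The 3 rows without a symbol held 0.0313% to 0.0679% of reads per library and were not tested.

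Differences were tested with limma 3.58.1 (trend option, R 4.3.3) on log2(CPM + 1), which understates changes of low genes, over 15597 genes with at least 0.5 CPM in at least 3 libraries. One model held the 4 group means (8 residual degrees of freedom). P-values were adjusted by Benjamini-Hochberg over all tested genes, called at 0.05, and measure the spread between replicates that the labels call biological. The tests were tried on simulated data. The 10 genes and all lists were chosen with earlier results of these data known. Named genes were the 10, a panel of 25 listed genes, and the 5 genes closest in r to each of 5 members. Panel values are printed for TKO against WT on HFD and partly for HFD against ND in WT, a limit set after the values had been seen; some panel genes are not reported here.

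Alternatives were pseudocounts of 0.5 and 5, no filter, TMM scaling, edgeR 4.0.16, DESeq2 1.42.0, the compared groups alone, a replicate block and each library left out. TMM factors lay between 0.902 and 1.11. Higher and lower calls were 2365 and 4923 for TKO on HFD (3315 and 3996 with TMM), 337 and 552 for TKO on ND (525 and 396), 2525 and 921 for HFD in TKO (1397 and 1474), and 5892 and 3173 for HFD in WT (4664 and 4248). Positions and exon lengths came from GENCODE vM21 (GRCm38).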

Additional observations from a re-analysis of the deposited data

Results flagged for a closer look

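For 7 genes the TKO effect differed between the diets by a test of the difference itself, in which 28.7% of all tested genes were called. The TKO effect on HFD minus that on ND (log2, limma) was -1.46 for H2-Aa, -1.20 for H2-Ab1, -1.42 for H2-Eb1, -1.18 for Cd74, -1.76 for H2-DMb1, -1.30 for Ciita and -0.81 for Flt3. In each of the 7 genes all HFD_TKO libraries lay below all HFD_WT libraries, and the ND_TKO and ND_WT libraries overlapped. How many of all tested genes show this pattern was not computed.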

How the results depend on the processing

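For TKO against WT on HFD, 8 to 9 of the 10 genes were called, all lower, under every alternative run. For TKO against WT on ND, 0 were called under every one, edgeR and DESeq2 included. For HFD against ND in WT, 9 genes were called higher under every one. For HFD against ND in TKO (3 calls) there was 1 call with no filter, TMM scaling or edgeR, 5 with the compared groups alone, and 0 to 8 with a library left out. Of all tested genes, 14.8%, 18.4%, 18.4% and 17.1% were called in those settings, in that order, and 11% to 27.5% with a library left out. For HFD_TKO against ND_WT (2 calls) there was 1 with no filter, 0 with the compared groups alone, and 0 to 8 with a library left out. Of all tested genes, 25.3%, 23.1% and 23.8% to 41.1% were called there, in that order. The interaction gave 6 to 8 calls with a library left out, where 22.7% to 32.3% of all tested genes were called. Over all genes, TKO against WT on ND had 889 calls, against 280 with the compared groups alone and 1395 with DESeq2. Leaving out a WT library of that diet gave 350 calls (replicate 1), 506 (replicate 2) or 1853 (replicate 3), and leaving out a TKO library gave 520 (replicate 1) or 435 (replicate 3). HFD against ND in TKO had 3446, against 2220 without HFD_TKO replicate 3 and 1716 without ND_TKO replicate 3, and HFD_TKO against ND_WT had 5472, against 3596 with the compared groups alone.

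Small differences changed sign, and the cause was not tested. With a library left out, log2 changes in TKO against WT on ND ranged from -0.2164 to 0.1174 for H2-Aa, -0.2024 to 0.1643 for H2-Ab1, -0.1841 to 0.1362 for H2-Eb1, -0.2958 to 0.0574 for Cd74, -0.2506 to 0.1892 for H2-DMb1, -0.0732 to 0.1972 for Flt3, -0.1233 to 0.1668 for Clec9a and -0.2519 to 0.1037 for Tet2. On HFD they ranged from -0.0269 to 0.0598 for Zbtb46, -0.1752 to 0.0823 for Flt3l and -0.0198 to 0.0858 for Cdh5, and in HFD against ND in WT from -0.1114 to 0.0608 for Rfx5. TMM scaling gave 0.0025 for H2-Ab1, 0.009 for H2-Eb1 and 0.0028 for Tet2 on ND, and 0.0377 for Flt3l and 0.0038 for Pecam1 on HFD. On HFD, edgeR gave 0.0666 for Flt3l and 0.0257 for Pecam1, and DESeq2 gave 0.0633 and 0.0232. With a library left out, H2-DMb1 relative to the pan-leukocyte list ranged from -0.2504 to 0.1155 in HFD against ND in WT.

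Counts of genes higher relative to the pan-leukocyte list ranged, with a library left out, from 0 to 1 in HFD against ND in WT, 0 to 3 in HFD against ND in TKO and 1 to 7 in HFD_TKO against ND_WT. Relative to the macrophage list they ranged from 0 to 1 in HFD against ND in TKO and 0 to 4 in HFD_TKO against ND_WT, where a pseudocount of 0.5 gave 2.

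Replicate numbers are not stated to pair the libraries. Correlations of deviations from group means were -0.497 to 0.562 (median -0.083, 18 pairs) between same-number libraries of different groups. Between libraries of other numbers they were -0.528 to 0.56 (median 0.072, 36 pairs). With 3 libraries a group these values cannot exclude pairing. With a replicate block, adjusted p was 0.058 for Rfx5 in TKO against WT on HFD (log2 change -0.42), 0.053 for Cd74 (0.56) and 0.049 for Flt3 (0.48) in HFD against ND in TKO, and 0.043 for Zbtb46 in HFD_TKO against ND_WT (-0.38). No other call of a named gene changed with the block. At these depths 3 reads correspond to 0.117 to 0.143 CPM, and levels below that could not be told from 0.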
